A study of Rattus norvegicus with 6 samples.

Results

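The protein genes of the cytosolic ribosome were followed in LPS-stimulated primary rat microglia with and without siponimod. Members were chosen by name alone. They were all genes whose symbol starts with Rpl or Rps and a digit, together with Rplp0, Rplp1, Rplp2, Rpsa and Fau, while the Rps6k kinases and names marked as pseudogenes were left out. This gave 108 of the 23139 genes listed, with 83 distinct names, since 15 names had several numbered rows (Rpl39_3 and Rpl39_6, for instance) that together made 40 of the members. Of the 80 protein genes that make up the textbook cytosolic ribosome, 69 had at least 1 member row (39 of 47 large subunit genes and 30 of 33 small subunit genes). Rack1, a small subunit protein, had a row that the name rule does not take and is given below with the related genes. Rpl7, Rpl10, Rpl13a, Rpl27a, Rpl36, Rpl37a, Rpl41, Rps7 and Rps26 were not analysed here.

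The study asked how siponimod, a modulator of sphingosine-1-phosphate receptors used in multiple sclerosis, changes the transcriptome of microglia in an inflammatory setting. Bulk mRNA was sequenced in 3 libraries per condition. Both conditions used Wistar rat cortex of postnatal day 1, from which microglia were shaken off mixed cultures after 10 days and purified on CD11b/c beads. The LPS group received 100 ng/mL bacterial lipopolysaccharide (LPS) with DMSO, and the LPS/siponimod group received the same LPS dose with 50 µM siponimod, both in medium with 10% foetal calf serum. All libraries therefore carry LPS, and neither unstimulated cells nor cells with siponimod alone were analysed here. The sources used here do not state plainly how long these cells were stimulated, and although the libraries of a condition are described as biological replicates, which litter or culture each came from is not given. Total counts were 39484979, 38301365 and 38080379 in LPS libraries 1 to 3, and 46643859, 43336006 and 38857441 in the LPS/siponimod libraries.

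A eukaryotic ribosome consists of a small subunit that decodes the mRNA and a large subunit that forms the peptide bond, and its proteins are made in matched amounts and assembled on ribosomal RNA in the nucleolus. On the large subunit, Rplp0, Rplp1 and Rplp2 form the stalk that recruits elongation factors. Ribosomal protein mRNAs are textbook TOP mRNAs, which begin with a cytosine and a run of pyrimidines at the transcription start, and mTORC1 controls their translation through Larp1 and the 4E-BPs, a level that mRNA counts do not measure.

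The start regions show this pyrimidine feature in part. RefSeq promoter windows of the rat build GRCr8, which is not the build of the deposited counts, were matched by symbol to 64 of the 83 names. Below, 10 bases before and 20 bases after the annotated start are given 5′ to 3′ on the coding strand for members that the results turn on, with the longest run of at least 5 pyrimidines in capitals. They are shown because the members past the adjusted p (Rplp1, Rps27l and Rpl3l) stand beside relatives or abundant members that did not pass the test.
Rplp0: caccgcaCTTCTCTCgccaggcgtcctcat
Rplp1: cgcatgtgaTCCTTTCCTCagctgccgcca
Rplp2: cgccgccggacgccgccgaggtcgcacgcg
Rps27: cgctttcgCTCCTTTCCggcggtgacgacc
Rps27l: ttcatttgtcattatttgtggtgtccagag
Rpl3: gcctgctcgaTCTCTatcggcggcgtgtgg
Rpl3l: ctggtgcctggtggggaggTCCCTTCCTaa
Rps2: TCTTTTTCTTCgggaaaacacgtgagtctg
Rpsa: ccgcgctaccctggaacgggtccgtacggc
Rpl19: ccagcaagCTCTTTCCTTTCgctgctgcgt
Rpl4: TCTTCCTTTTCCTgtgggagcagccgggta

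Rplp1, Rps27, Rpl3l, Rpl19, Rps2 and Rpl4 carried runs of 9 to 13 pyrimidines in this window, Rplp0 of 8 and Rpl3 of 5, whereas Rps27l, Rplp2 and Rpsa carried none of 5 or more. In this window, runs thus occurred and were missing both among members past the adjusted p and among the others. The Rpl3l run lay wholly after the annotated start. Within 30 bases either side of the start, Rpsa carried CTTTCC and Rplp2 carried CTTCC on the coding strand. Rps27l carried neither. The letters CTTTCC stood on the coding strand within 30 bases either side of the start in 19 of 63 windows of tested members (30.2%), against 2.59% of all 33469 windows in the table. Counting both strands, the shares were 30.2% and 5.34%. CTTCC, which is not contained in CTTTCC, stood on the coding strand in 39.7% of the members' windows and in 12.1% of all windows, and on either strand in 49.2% and 23.8%. Such a match is a description of letters at an annotated start, and start positions of a reference may lie some bases from those used in these cells.

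The labelled cell type was checked first on its markers. All 13 microglia and macrophage markers passed the filter on low counts, and their summed level was 9223, 7582 and 5114 CPM in LPS libraries 1 to 3 against 4308, 5254 and 3265 CPM with siponimod. CPM are read counts scaled to a common library total, here after TMM normalization, which removes composition differences between libraries. Csf1r, the receptor for the survival factor CSF-1, had means of 2107 and 811 CPM, and Cd68, a lysosomal protein, 1074 and 1076 CPM. Aif1, Itgam and Cx3cr1 were called lower and Sall1 was called higher. Cx3cr1 held 69, 202 and 35 counts with LPS and 3, 21 and 4 counts with siponimod. It passed the filter on low counts through the LPS libraries, so its call could hardly be other than lower. Of markers of other cells, astrocyte genes summed to 48.4, 24.2 and 25 CPM without and 29.3, 28.8 and 59.6 CPM with siponimod, mostly Slc1a3, and Aldoc was the 1 gene of that list called, lower at 4.14 and 1.9 CPM on average. Oligodendrocyte lineage genes summed to 5.37, 5.37 and 36 CPM without and 11.4, 10.3 and 22.6 CPM with siponimod. LPS library 3 stood apart there, with Olig1 at 13.9, Pdgfra at 7.64, Olig2 at 6.46 and Sox10 at 2.58 CPM against 0.027, 0.135, 0.027 and 0 CPM in LPS library 1. Mbp, of the same list, was called higher, with means of 3.48 and 11.6 CPM and a log2 FC of 1.74. Neuron genes summed to 1.67, 1.06 and 11.3 CPM without and 6.39, 9.27 and 17 CPM with siponimod, mostly Tubb3. Snap25, a synaptic gene of that list, was called higher, from 0, 0.0259 and 0.0269 CPM with LPS to 2.02, 3.43 and 1.98 CPM with siponimod. Snap25 passed the filter on low counts only through the siponimod libraries, so it could only be called higher. Fibroblast and vascular genes summed to 160, 206 and 85.4 CPM without and 47.9, 82.4 and 32.9 CPM with siponimod, with Cdh5 at 92.2 and 35.8 CPM and Pecam1 at 53.5 and 10.2 CPM on average. The 1 gene of that list past the test was the fibroblast marker Dcn, at 0.0809, 0 and 0.108 CPM with LPS and 9.81, 1.1 and 4.34 CPM with siponimod. Like Snap25, Dcn passed the filter only through the siponimod libraries, so the direction of its call was fixed. The lymphocyte marker Cd3e was at 0 counts in all 6 libraries. In bulk samples, fewer cells of a type and less RNA per cell cannot be told apart, and the part of these shifts in the values below was not tested.

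LPS library 1 stood apart in the ribosomal protein genes. Their counts made up 1.5% of the total in LPS library 1, against 2.07% and 2.18% in LPS libraries 2 and 3 and 2.02%, 2.18% and 2.18% in the LPS/siponimod libraries. LPS library 1 was the only one under 2%, while its total count was the highest of its group. Of the 81 members with a mean of at least 10 CPM, 80 (98.8%) were lower in LPS library 1 than the mean of the other LPS libraries, and the median gap was −0.41 on the log2 scale. Among all 7828 tested genes of that abundance, 52.7% were lower there, with a median gap of −0.02. LPS library 1 was the lowest of all 6 libraries for 70 of these 81 members (86.4%), compared with 20.2% of all such genes. Rpl10a, a large subunit protein, showed one of the widest gaps, with 77.2 CPM in LPS library 1 against 174, 214, 140, 171 and 165 CPM in the others. Rpl10l, a like-named copy, was the exception and was higher there by 0.35 on the log2 scale. The summed share, the median and sign counts and the members called are therefore also given without this library. Without LPS library 3, which stood apart in the oligodendrocyte lineage genes, the members' median log2 FC was 0.15, with 68 positive and 25 negative values.

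**Figure D1:**
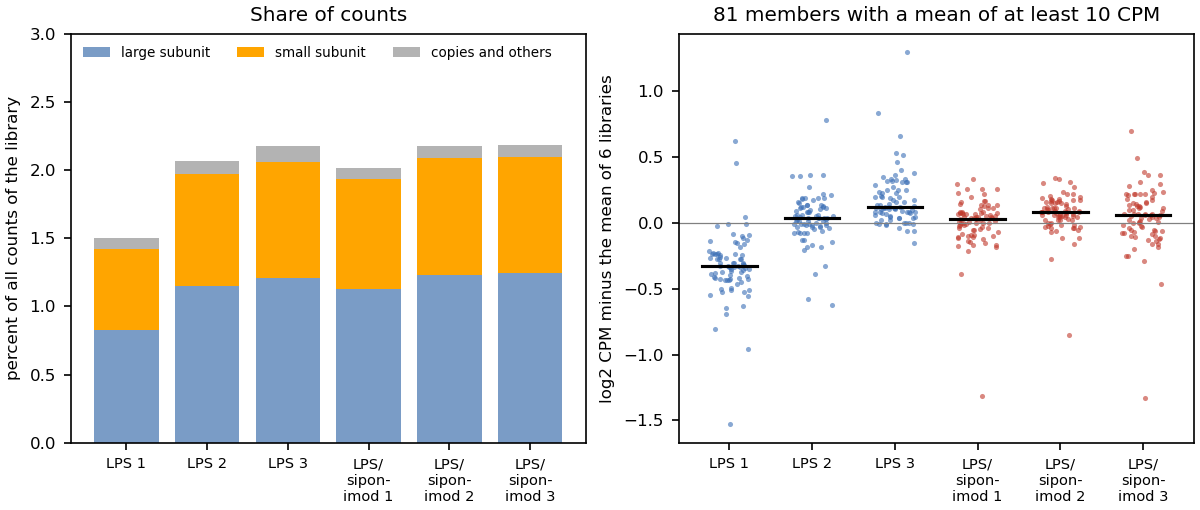
Left, stacked bars of the percent of each library's counts that fall on large subunit genes, small subunit genes, and copies and other names matching the rule; right, each point is 1 of 81 members, placed at its log2 CPM minus that member's mean over the 6 libraries, with the median as a bar. LPS library 1 lies lowest in both panels, at 1.5% of counts and a median deviation of −0.33, and the other 5 libraries lie between 2.02% and 2.18%.

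The members as a group differed little between the conditions. Ribosomal protein genes took 1.92% ± 0.364 of the counts with LPS and 2.125% ± 0.0953 with LPS/siponimod (mean ± SD, n = 3 each), and the ranges overlapped. Without LPS library 1 the LPS mean was 2.12%. Large subunit genes held 1.06% ± 0.204 and 1.2% ± 0.061, and small subunit genes 0.756% ± 0.142 and 0.84% ± 0.0312. The groups of both subunits thus differed by less than the SD of the LPS libraries. The distance between the highest and lowest share was narrower with siponimod in each of these sums, which did not hold without LPS library 1.

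Of the 108 members, 91 passed the filter on low counts, among them a row for each of the 69 textbook genes. Of the 17 that did not pass, 8 had no count in any library and 9 had few. Rps20_3 was 1 of the 9, with 19, 61 and 0 counts in the LPS libraries and 0 in all LPS/siponimod libraries. No member was called higher and 2 (2.2%) were called lower in edgeR's quasi-likelihood test (adjusted p up to 0.05, change of 1.5-fold or more), where 25.3% of all 11977 genes tested were called (13.6% higher and 11.7% lower). DESeq2 and limma-voom also called none higher. At an unadjusted p under 0.05 there were 9 members in the edgeR test, beside 43.7% of all genes. By the adjusted p alone, 1 member was higher and 2 were lower (3.3%, against 28.6% of all genes). Both genes called lower, Rps27l and Rpl3l, are relatives of a ribosomal protein gene and not among the 69.

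The log2 fold changes (FC) of the tested members had a median of 0.07 and quartiles of −0.14 and 0.22, while all genes had a median of −0.02 and quartiles of −0.53 and 0.49. Positive values were found for 56 members and negative values for 35. This balance rested on LPS library 1, since without it the median was −0.04, with 40 positive and 52 negative values among 92 members tested. Within the numbered pairs of libraries, the members' median difference was 0.34 in pair 1, 0.05 in pair 2 and −0.13 in pair 3, and 45 members (49.5%) moved in 1 direction in all pairs, against 70.8% of all genes. The groups did not overlap for 22 members (24.2%), with siponimod above for 14 and below for 8, whereas they did not overlap for 49.3% of all genes.

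The fold changes of most members were small. The FC lay within 1.5-fold in either direction for 85 of 91 members (93.4%), compared with 54.8% of all genes. The whole 95% interval lay within 1.5-fold for 44 members (48.4%), against 16% of all genes, and for the other members a change of that size was not bounded by these libraries. Among 66 members with a mean of at least 100 CPM, 1.52% were called and 51.5% had such an interval, whereas of 2012 other genes of at least 100 CPM 34.6% were called and 17.4% had one.

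**Figure D2:**
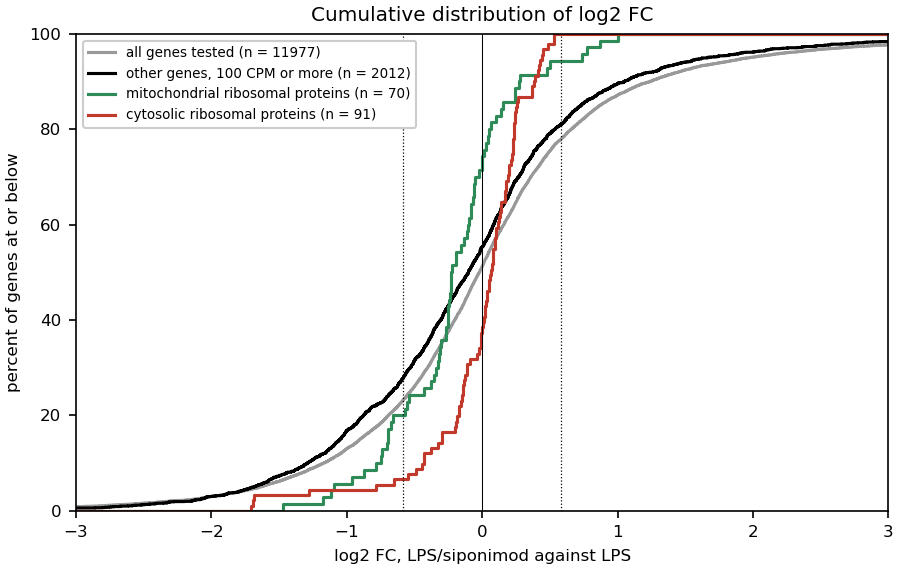
Cumulative percent of genes (vertical axis) at or below each log2 FC of LPS/siponimod against LPS (horizontal axis) for all tested genes, other genes of at least 100 CPM, mitochondrial and cytosolic ribosomal protein genes, with dotted lines at a 1.5-fold change. The curve of the 91 cytosolic members is the steepest, with quartiles at −0.14 and 0.22, and its low tail ends at −1.71.

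The large subunit gave 47 tested rows, of which none was called, with a median log2 FC of 0.1. The small subunit gave 33 tested rows, again with none called, and a median of 0.05. In the edgeR test, 5 of the large and 2 of the small subunit rows had an unadjusted p under 0.05. The whole 95% interval lay within 1.5-fold for 22 of the large and 18 of the small subunit rows. Of the 10 tested members with a mean under 10 CPM, 9 lay below 0, and their median log2 FC was −0.54. Rps27a, which encodes a ubiquitin fusion of the small subunit, was listed with few reads, at 2.46, 3.87 and 4.38 CPM with LPS and 1.74, 2.87 and 1.61 CPM with LPS/siponimod. Transcript levels of different genes are not compared here, because transcript lengths were not used and CPM grow with length. Where a member is named for its high CPM, this refers to reads only.

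**Figure D3:**
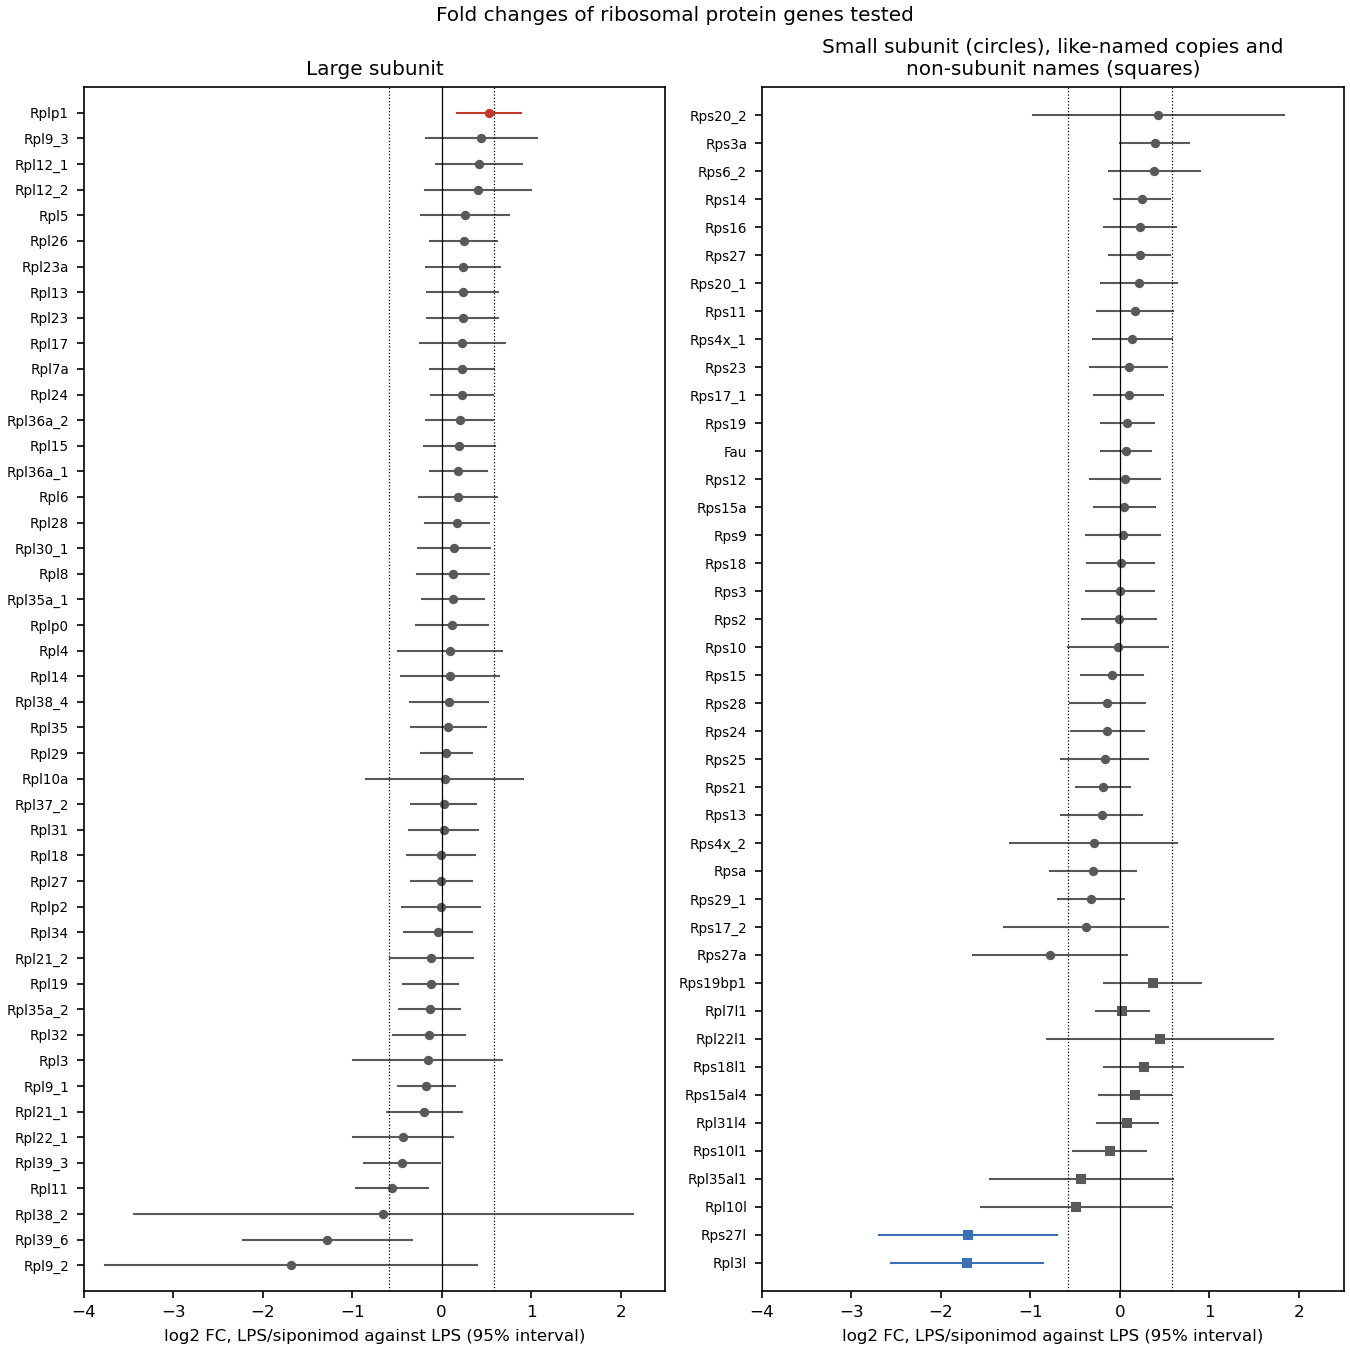
Log2 FC of LPS/siponimod against LPS (horizontal axis) with its 95% interval for the tested members except 3 not reported here, large subunit on the left and small subunit with copies and other names on the right; blue marks genes called lower, red the gene past the adjusted p alone, and dotted lines a 1.5-fold change. Only Rps27l and Rpl3l are called lower, at −1.69 and −1.71, and Rplp1 is past the adjusted p at 0.53.

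The abundant core members illustrate how little most of them moved. Rplp0, the stalk base and the member of highest CPM, measured 1074, 1280 and 1363 CPM with LPS and 1320, 1392 and 1316 CPM with LPS/siponimod. The groups overlapped, with a log2 FC of 0.12 (edgeR quasi-likelihood test, adjusted p = 0.627), or 0.04 without LPS library 1. Rps2, a small subunit protein at the mRNA entry side, measured 590, 696 and 814 CPM with LPS and 687, 678 and 727 CPM with LPS/siponimod. The siponimod values all fell inside the LPS range, and the log2 FC of −0.01 took the opposite sign under some of the alternatives (adjusted p = 0.983 by edgeR).

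Rpl19, a large subunit protein often used as a reference gene, hardly shared the low values of LPS library 1. It measured 596, 591 and 619 CPM with LPS and 548, 561 and 548 CPM with LPS/siponimod. All siponimod libraries lay below all LPS libraries, yet the log2 FC was only −0.12 (edgeR, adjusted p = 0.491). Rpl4 measured 381, 570 and 698 CPM with LPS and 560, 592 and 609 CPM with siponimod. Its log2 FC of 0.1 turned to −0.09 without LPS library 1. Rpsa, the small subunit protein also known as the laminin receptor, measured 551, 756 and 795 CPM with LPS and 554, 645 and 512 CPM with siponimod. Its groups overlapped at a log2 FC of −0.3 ± 0.2 (SE) with an edgeR adjusted p of 0.292. Fau, made as a fusion with a ubiquitin-like protein, stood at 152 ± 10.4 and 159 ± 4.68 CPM (SD, n = 3 each).

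Of the stalk proteins, Rplp1 was the only one past the adjusted p. It measured 371, 435 and 450 CPM with LPS and 631, 567 and 615 CPM with LPS/siponimod, and all siponimod libraries lay above all LPS libraries. Its log2 FC was 0.53 ± 0.15 (SE, 95% interval 0.17 to 0.88), which passed the adjusted p of the edgeR quasi-likelihood test (0.0411) but not the fold threshold. With the replicate number as a block, the edgeR adjusted p was 0.0502 at a log2 FC of 0.53. Rplp1 also missed the adjusted p without LPS library 1 (0.0819 by edgeR), and it missed it without any 1 of LPS library 2 and the LPS/siponimod libraries. Rplp2, its partner in the stalk dimer, measured 182, 234 and 279 CPM with LPS and 222, 236 and 230 CPM with siponimod, with all siponimod values inside the LPS range.

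Per Rplp2 count, LPS libraries 1 to 3 held 2.04, 1.86 and 1.61 Rplp1 counts, and LPS/siponimod libraries 1 to 3 held 2.84, 2.4 and 2.67. Per Rplp0 count, the same libraries held 0.345, 0.34 and 0.33 Rplp1 counts without and 0.478, 0.407 and 0.467 with siponimod. Both ratios were higher in all siponimod libraries, by 0.52 and 0.41 on the log2 scale. For each, a two-sided exact permutation test gave p = 0.1, the smallest that 3 against 3 libraries allow, and 0.18 after Benjamini-Hochberg adjustment over the 9 ratios computed.

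**Figure D4:**
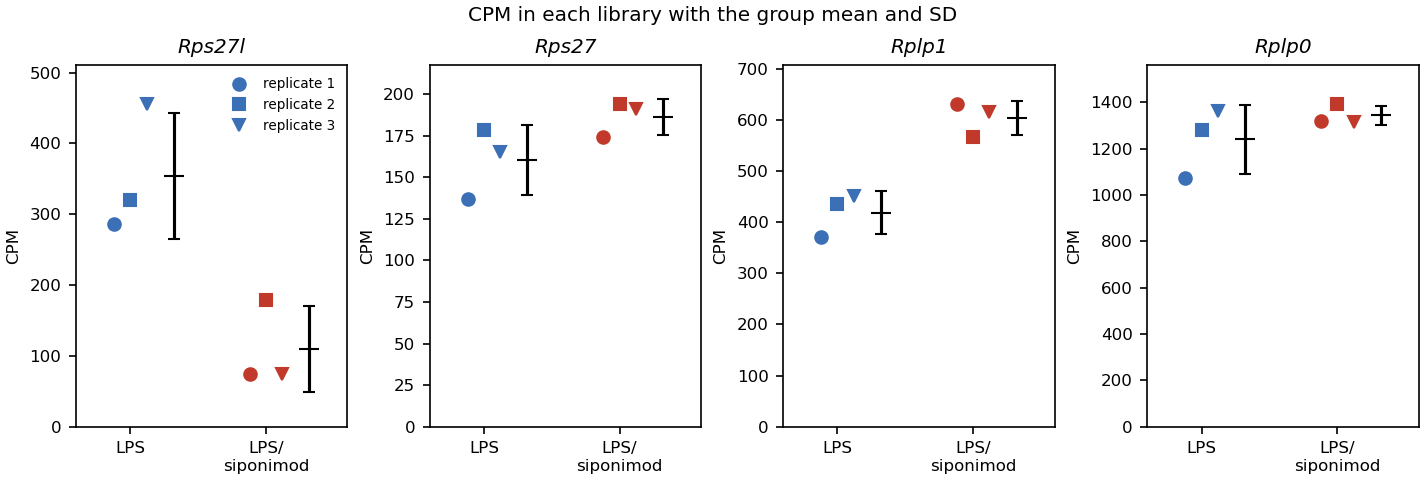
CPM (vertical axis, from 0) of Rps27l, Rps27, Rplp1 and Rplp0 in each library, with the replicate number as the symbol and the group mean and SD (n = 3) as a bar. Rps27l lies lower in all LPS/siponimod libraries (74.1 to 180 CPM against 287 to 456 CPM), Rplp1 lies higher (567 to 631 against 371 to 450), and the Rplp0 groups overlap.

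In the reported edgeR fit, the largest log2 FC were found in like-named copies, narrowly ahead of Rpl9_2 (−1.68). By limma-voom, Rpl9_2 had the largest, at −2.005. Of 9 tested copies, 2 were called by edgeR (22.2%, against 25.3% of all genes). The copies' median log2 FC was −0.11, with 4 positive and 5 negative values. Rps27l, known as a p53-induced relative of Rps27, measured 287, 320 and 456 CPM with LPS and 74.7, 180 and 74.1 CPM with LPS/siponimod. The groups did not overlap, and the fall was seen in all 3 numbered pairs, at −1.94, −0.83 and −2.62. The log2 FC was −1.69 ± 0.41 (SE, 95% interval −2.69 to −0.7, edgeR adjusted p = 0.0291). The call was lost without LPS library 1 (−1.81, edgeR adjusted p = 0.0593), LPS library 2 (−1.75, 0.0865), LPS/siponimod library 1 (−1.48, 0.114) and LPS/siponimod library 3 (−1.47, 0.092), although no alternative turned the direction. Rps27 itself measured 137, 178 and 165 CPM with LPS and 174, 194 and 191 CPM with siponimod, with overlapping groups and a log2 FC of 0.22 (95% interval −0.13 to 0.56).

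The number of Rps27l counts per Rps27 count was 2.09, 1.79 and 2.76 under LPS alone, against 0.429, 0.925 and 0.389 after siponimod was added. The ratio was lower in every LPS/siponimod library than in every LPS library, by −2.02 on the log2 scale (two-sided exact permutation p = 0.1, 0.18 adjusted over 9 ratios). The start windows above also differ, since Rps27 has CTCCTTTCC at its start and Rps27l has no pyrimidine run of 5. Reads from such similar genes could be exchanged if they match both, which the sources used here do not describe.

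Rpl3l, known as the form of Rpl3 used in skeletal and heart muscle, was barely present. It held 28, 38 and 27 counts under LPS alone, against 12, 10 and 11 counts with siponimod, below 1 CPM on average in both groups. The log2 FC was −1.71 ± 0.35 (SE, edgeR adjusted p = 0.0192). The call was lost with no filter on low counts (edgeR adjusted p = 0.0547), and also without LPS library 1 (0.0761), LPS library 2 (0.132) or any of LPS/siponimod libraries 1, 2 and 3 (0.123, 0.0849 and 0.0721 by edgeR). Rpl3, at the peptidyl transferase centre, measured 198, 444 and 500 CPM with LPS and 300, 365 and 360 CPM with siponimod. Its siponimod values lay between LPS library 1 and the other LPS libraries, and its log2 FC of −0.16 was −0.45 without LPS library 1 and turned to 0.09 without LPS library 3.

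Rpl22l1, the partner of Rpl22 in a known pair that regulates each other, measured 5.85, 15.5 and 26.8 CPM with LPS and 16.6, 21.4 and 27.6 CPM with siponimod. Rpl22_1, which held 99.8% of all Rpl22 counts, measured 5.26, 5.34 and 6.03 CPM with LPS and 3.08, 4.61 and 4.63 CPM with siponimod. Neither passed the edgeR test (adjusted p = 0.543 and 0.198). The ratio of Rpl22l1 to Rpl22_1 counts was 1.11, 2.89 and 4.45 under LPS alone and 5.4, 4.65 and 5.95 with siponimod, higher in all siponimod libraries by 1.13 on the log2 scale (two-sided exact permutation p = 0.1, 0.18 adjusted over 9 ratios). Without LPS library 1, which had the lowest ratio, the difference was 0.56.

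The other copies did not pass the test. The log2 FC was −0.49 for Rpl10l (−0.79 to −0.16 over the alternatives), −0.43 for Rpl35al1 (−0.73 to −0.16), −0.11 for Rps10l1 and 0.27 for Rps18l1 (0.12 without LPS library 1), and their textbook relatives with a row (Rpl35a_1 at 0.13, Rpl35a_2 at −0.13, Rps10 at −0.02 and Rps18 at 0.01) did not pass either. Of the names that fit the rule without being subunits, Rps19bp1, a nucleolar protein that binds Rps19, measured 25.7 ± 7.42 and 33.1 ± 3.97 CPM (SD, n = 3 each), and Rpl7l1, a factor of large subunit assembly, had a log2 FC of 0.03.

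Just outside the thresholds stood members named here after their values were seen. Rpl11, a large subunit protein that binds Mdm2 when assembly is disturbed, measured 226, 293 and 313 CPM with LPS and 173, 203 and 191 CPM with LPS/siponimod. All siponimod libraries lay below all LPS libraries, although LPS library 1 is the lowest of its group. The log2 FC was −0.55 ± 0.17 (SE, edgeR adjusted p = 0.0512). Without LPS library 1 it was −0.66 (edgeR adjusted p = 0.0402), the only one of 92 members then called (1.09%, against 13.9% of all genes in that fit), and with the replicate block it was −0.54 (edgeR adjusted p = 0.0337), past the adjusted p but short of 1.5-fold.

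Rpl39_6, a second row of the Rpl39 name with few counts, stood at 2.11 ± 0.617 and 0.867 ± 0.296 CPM (SD, n = 3 each). Its log2 FC was −1.28 ± 0.39 (SE, edgeR adjusted p = 0.0529), and it was called lower with the replicate block (−1.28, edgeR adjusted p = 0.0418), by DESeq2 (adjusted p = 0.0137) and by the likelihood ratio test of edgeR (adjusted p = 0.0366). Each of these fits called 3 members lower (3.3%), where the block called 34%, DESeq2 32.5% and the likelihood ratio test 29.8% of all genes. By the adjusted p alone the block gave 4 lower and 0 higher, beside 38.9% of all genes. The main Rpl39 row, Rpl39_3, measured 191, 250 and 244 CPM with LPS and 173, 190 and 141 CPM with siponimod (log2 FC −0.44, edgeR adjusted p = 0.106). Multiple rows of 1 name, and near-identical pseudogenes, make the counts of such members uncertain.

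Leaving out LPS library 3 instead left 8 of 93 members called (8.6%, against 30.3% of all genes in that fit). Of these, Rpl3l and Rps27l were lower, as was Rps20_3. Rps20_3 passed the filter there only through its counts in LPS libraries 1 and 2, and so had to be lower. The other 5 were higher, among them Rplp1 (log2 FC 0.59, edgeR adjusted p = 0.0412), Rpl9_3 (0.75, 0.0256) and Rps19bp1 (0.63, 0.0304). Rpl9_2 had the largest negative value after the called genes, at −1.68 ± 0.86 (SE, edgeR adjusted p = 0.179), from 34, 64 and 17 counts under LPS alone and 19, 2 and 20 counts with siponimod.

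Some small subunit members lay apart between the groups without passing the test, and these too were named after their values were seen. Rps6_2, the row that held all but few of the counts of Rps6, the small subunit protein phosphorylated downstream of mTORC1, measured 325, 479 and 530 CPM with LPS and 564, 568 and 609 CPM with siponimod. Its log2 FC was 0.38, with a 95% interval from −0.13 to 0.89. Rps3a measured 282, 347 and 384 CPM with LPS and 449, 429 and 449 CPM with siponimod, at a log2 FC of 0.39. In both genes the LPS libraries spread more widely than the siponimod libraries, with LPS library 1 the lowest, and without it the log2 FC were 0.22 and 0.29. In the other direction, Rps29_1, a zinc-binding small subunit protein, measured 284, 310 and 371 CPM with LPS and 252, 278 and 240 CPM with siponimod, at −0.32. The edgeR adjusted p was 0.208 for Rps6_2, 0.112 for Rps3a and 0.154 for Rps29_1.

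Where a name was split over several well-covered rows, the rows can be set side by side. Rpl12, a protein at the base of the stalk, had its counts in 2 rows, with 70.8% in the larger. Rpl12_1 had a log2 FC of 0.42 and Rpl12_2 of 0.41, and these were 0.26 and 0.3 without LPS library 1. The rows of Rpl21, with 64.2% in the larger, had values of −0.19 and −0.11, and those of Rpl36a, with 72% in the larger, had 0.19 and 0.2. The rows of Rpl35a, with 64.5% in the larger, had 0.13 and −0.13, and both intervals included 0. How reads that fit several such rows were assigned is not given in the sources used here.

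Genes that serve the ribosome without matching the name rule were counted in the same fit, and differences between lists were not tested. The lists were written from general knowledge with earlier results of these data known. Without LPS library 1, where the share of all genes called fell from 25.3% to 13.9%, 23 of the 44 list genes called were no longer called, among them Mrps6, Mrpl38, Eif5a2, Tpt1, Utp15, Gnl3, Tex10, Eif6, Pdcd2l, Ttf1, Gigyf2, Gtpbp1, Akt1s1, Rragc and Sesn3. Without LPS library 2 or LPS/siponimod library 1, 3 list genes were called higher and 1 lower, and 5.16% and 6.22% of all genes were called in these fits. Of 70 tested mitochondrial ribosomal protein genes, which serve the separate ribosome of that organelle, 13 were called lower and 2 higher (21.4%, against 25.3% of all genes), with a median log2 FC of −0.23. The replicate block added Mrpl44 (−0.71, edgeR adjusted p = 0.0315) and Mrps18b (0.81, edgeR adjusted p = 0.0233). Mrpl49 fell from 66.4 ± 9.28 to 30.7 ± 3.71 CPM (log2 FC −1.11), Mrpl18 fell from 21 ± 1.05 to 12.5 ± 1.02 CPM (−0.75), and Mrps16 fell from 20 ± 0.941 to 12.4 ± 0.665 CPM (−0.69). Mrps6 and Mrpl38 rose, by 1 and 0.87 on the log2 scale, but the Mrpl38 call (edgeR adjusted p = 0.0497) was lost under 8 of 17 alternatives, RLE size factors and no filter among them, and that of Mrps6 under 7. The mRNAs encoded by the mitochondrial genome made up 1.54%, 1.39% and 1.41% of counts under LPS alone, against 0.312%, 0.61% and 0.568% with siponimod, and these groups did not overlap.

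Of the factors that move the ribosome along the mRNA, 2 of 8 tested were called higher and none lower (25%, against 25.3% of all genes). Eef1a1, which delivers aminoacyl-tRNA, rose from 3328 ± 344 to 6668 ± 604 CPM (log2 FC 1 ± 0.2 SE, edgeR adjusted p = 0.0189). Eif5a2, a form of the factor that eases peptide bond formation, rose by 0.88. Eef2, which drives translocation, measured 1165, 1470 and 1558 CPM with LPS and 2191, 1987 and 2370 CPM with siponimod, with a log2 FC of 0.64 that did not pass (edgeR adjusted p = 0.0508). Eef1g, a subunit of the complex that recharges Eef1a1, had a log2 FC of −0.07. Among 17 tested mRNAs known as TOP mRNAs that encode other proteins, 3 (17.6%) were called higher and none lower, with a median of 0.38. These were Eef1a1, which both lists hold, Tpt1, the translationally controlled tumour protein (1022 ± 77.2 to 1606 ± 52.4 CPM, log2 FC 0.65) and Vim, an intermediate filament protein, which rose from 126 to 1559 CPM (log2 FC 3.63). The ribosome-bound proteins outside the name rule gave 4 tested genes and no call, with Rack1 at 329, 445 and 424 CPM with LPS and 509, 499 and 550 CPM with siponimod (log2 FC 0.38, edgeR adjusted p = 0.13). Naca, of the nascent chain complex, had a log2 FC of 0.26.

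Assembly factors build the subunits in the nucleolus and cytoplasm. Of 43 tested small subunit assembly factors, 6 were called higher and 1 lower (16.3%, against 25.3% of all genes), with a median of 0.18. Riok3, a kinase of late small subunit maturation, rose from 356 to 1256 CPM (log2 FC 1.82). Of the early processome factors, Krr1 rose by 0.7 and Utp15 by 0.93, while Utp6 fell by 0.59. The Utp6 call was lost under 10 of 17 alternatives, among them library size alone, limma-voom and no filter. The replicate block ended it too (−0.57, edgeR adjusted p = 0.0347, short of 1.5-fold). Of the assembly and RNA polymerase I genes, the block added Emg1 (−0.81), Mdn1 (0.9), Npm1 (0.7) and Taf1c (0.74). Of 39 large subunit assembly factors, 5 (12.8%) were called higher and none lower, among them Gnl2 (0.94), Gnl3 (0.91), Nop53 (0.83), Tex10 (0.82) and Eif6 (0.68), which keeps the new subunit from joining early. Pdcd2l, a relative of the Rps2 chaperone Pdcd2, was the 1 gene called of 7 chaperones (14.3%), at 0.68. Of 15 genes of RNA polymerase I, which makes ribosomal RNA, 2 were called lower (13.3%) and none higher. These were the terminator Ttf1 (−0.62) and the subunit Polr1g (−0.89). The Polr1g call was lost under 8 of 17 alternatives, library size alone and no filter among them, and that of Ttf1 under 6. With the replicate block, Taf1c, of the polymerase's promoter factor, was called higher (edgeR adjusted p = 0.045).

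**Figure D5:**
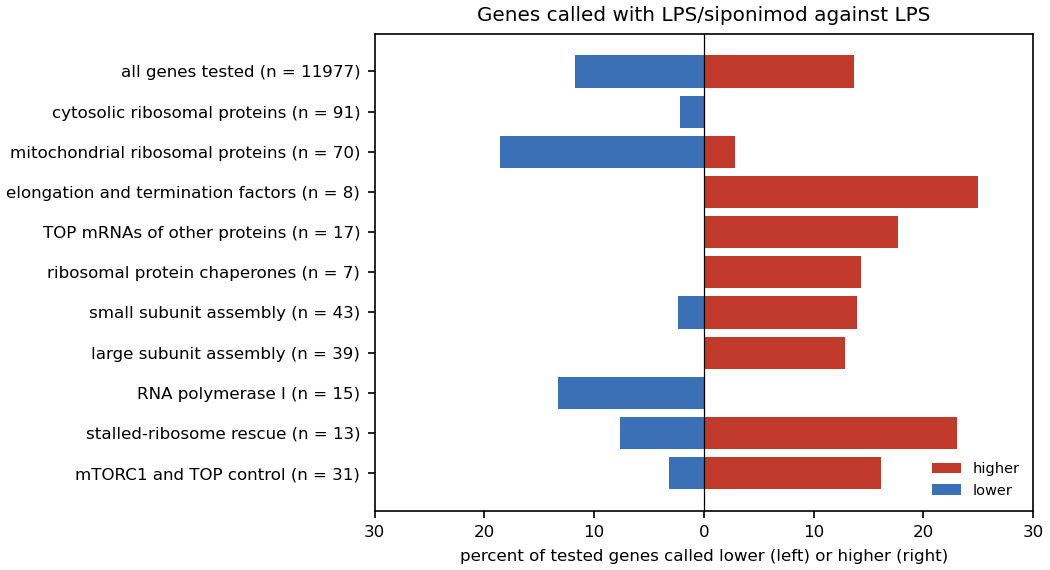
Percent of tested genes called lower (bars to the left) or higher (bars to the right) with LPS/siponimod against LPS, for all genes and for each list, with the number tested (the list of 4 ribosome-bound genes, with no call, is not drawn). The 91 cytosolic ribosomal protein genes show 2.2% lower and none higher, while all 11977 genes show 11.7% lower and 13.6% higher.

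Of 13 tested genes that rescue stalled ribosomes, 3 were called higher and 1 lower (30.8%, against 25.3% of all genes). Pelo, which splits stalled ribosomes, rose from 11.3 to 71 CPM (log2 FC 2.65 ± 0.25 SE, edgeR adjusted p = 0.00467), and Gtpbp2, a GTPase of the same rescue path, rose from 59.2 to 263 CPM (2.15 ± 0.17). Gigyf2, a translational repressor at collided ribosomes, rose by 0.62, and Gtpbp1, the relative of Gtpbp2, had a log2 FC of −0.59. In the mTORC1 list, which governs TOP mRNA translation, 5 of 31 tested genes were called higher and 1 lower (19.4%, against 25.3% of all genes). Eif4ebp1, which blocks cap-dependent initiation, rose from 33.6 to 75.2 CPM (log2 FC 1.16). Sesn2, a leucine-responsive inhibitor of mTORC1, rose by 0.95 and Akt1s1, another mTORC1 inhibitor, by 0.68, while Sesn3 had a log2 FC of −1.74. The other genes called higher were the Rag GTPases that bring mTORC1 to the lysosome, Rragd (3.05 ± 2.28 to 22.2 ± 8.13 CPM, log2 FC 2.86) and Rragc (166 ± 34.4 to 279 ± 54.6 CPM, 0.75).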

How the data were processed

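The authors trimmed the single reads of mRNA-captured libraries, mapped them with CLC Genomics Workbench to the rat genome (mRatBN7.2) and deposited total counts per gene for each of the 6 libraries, without normalization. The submitters' processing notes name bcl2fastq 2.20.0.422. The handling of multi-mapping reads and strand is not given in the sources used here. In 1 library, 1 row without a name, holding 0 counts, was left out.

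Counts were analysed in R 4.3.3 with edgeR 4.0.16 (filterByExpr, minimum count 10 and minimum total 15, which left 11977 of 23139 genes). TMM factors were 0.939 to 1.056. The quasi-likelihood test with condition as the only term was adjusted by Benjamini-Hochberg over all tested genes, and calls needed an adjusted p up to 0.05 together with a 1.5-fold change or more. SE is the log2 FC over the root of the F statistic, and 95% intervals follow from it. Differences within pairs use log2 CPM (prior count 2). The scripts were tested on simulated data. DESeq2 1.42.0, limma 3.58.1 (voom), the likelihood ratio test, other scalings and filters, a replicate block and libraries left out were the alternatives. Libraries of the same number deviated together from their group means (correlations 0.42, 0.545 and 0.611 across genes, −0.534 to 0.086 for other numbers). The pairing comes from the labels' numbers and this check, as no label states what a number marks.

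Members and lists were chosen with earlier results of these data known. Named with values were the called members, the 5 of highest CPM, the 3 largest changes each way, the stalk proteins, Rpsa, Fau, copies with their relatives, both non-subunit names, and up to 3 called genes per direction of each list. Rpl11, Rpl10a, Rpl39_3, Rpl39_6, Rpl9_3, Rps20_3, Rps27a, Rps3a, Rps6_2, Rps29_1, the rows of Rpl12, Rpl21 and Rpl36a, Eef2, Eef1g, Rack1, Naca, Mrps6, Mrpl38, Gnl3, Eif6, Rragd, Rragc and the genes that only the block called were named after their values were seen or for completeness. Values of some members that the rule names are not reported here, although all members were counted.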

Additional observations from a re-analysis of the deposited data

How the results depend on the processing

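With 3 libraries per condition, calls changed far more when a library was left out than with scaling or tool. Such fits also have fewer libraries from which to estimate the spread, so a lost call need not reflect the library dropped. Leaving out 1 library gave 0 to 5 ribosomal protein genes called higher and 0 to 3 called lower, and by the adjusted p alone 0 to 5 higher and 0 to 3 lower. For all genes these fits called 469 to 1941 higher and 182 to 1772 lower, and for the related lists 3 to 50 higher and 1 to 19 lower. The members' median log2 FC ranged from −0.04 to 0.15 over the same fits. After the data were seen, 2 alternatives were added. Without both libraries numbered 1, edgeR called 0 of all genes and so 0 members and 0 list genes in either direction, with 2 members at an unadjusted p under 0.05 and no other tool run on these 4 libraries. Summing the rows of 1 member name kept 0 higher and 2 lower.

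Library size alone called 1 member higher (Rplp1) and 2 lower, where 24.8% of all genes were called. It called 30 list genes higher and 10 lower. It moved the median of all genes from −0.02 to 0.06 and that of the members to 0.14. DESeq2 gave 2 members higher and 4 lower by the adjusted p alone, and the likelihood ratio test 4 lower, while 40.2% and 31.5% of all genes passed it. With no filter 1 member was called lower, with 0 higher and 1 lower by the adjusted p alone, and with a mean of at least 1 CPM 1 was called lower, where 14.9% and 26.5% of all genes were called. With the replicate block, 0 members were higher and 4 lower by the adjusted p alone. The block called 34% of all genes, and of the list genes it added 6 calls (Emg1, Mdn1, Mrpl44, Mrps18b, Npm1 and Taf1c) and ended 1 (Utp6).

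Log2 FC near 0 changed sign. With library size alone, Rps2 was at 0.07, Rplp2 at 0.062 and Rps10 at 0.045. With limma-voom and with the replicate block alike, Rps2 was at 0.006 and Rplp2 at 0.01. Without both libraries numbered 1, Rpl4 was at −0.084, Rps18 at −0.054 and Rpl7l1 at −0.067. Leaving out 1 library gave ranges of −0.097 to 0.12 for Rps2, −0.142 to 0.148 for Rplp2, −0.208 to 0.178 for Rps10, −0.092 to 0.31 for Rpl4, −0.097 to 0.127 for Rps18, −0.014 to 0.079 for Rpl7l1, −0.449 to 0.093 for Rpl3 and −0.218 to 0.029 for Rps10l1. The cause of these shifts was not tested. Rpl9_2, a row with few counts, had an SE of 0.86.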
